A study of Mus musculus with 2 samples.

Results

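The regulators of G protein signalling (RGS proteins) measured here were the 7 genes Rgs1, Rgs2, Rgs3, Rgs10, Rgs14, Rgs16 and Rgs19, of 35976 genes counted in single CD4 T cells of mouse spleen. They were chosen by name with their levels in these cells already known, so the levels, shares of positive cells and associations with chemoattractant receptors are given as descriptions, with no test. OTII cells, T cells with a transgenic receptor for ovalbumin, had been transferred into host mice, and the study asked how the interleukin-13 signal bears on follicular helper T (TFH) cells. The deleted hosts had the strain label IL13Ra1f/f, CD11cCre/+, which pairs a floxed interleukin-13 receptor gene with a Cre driven by the CD11c promoter, active mainly in dendritic cells of the host. The control hosts were C57BL/6 and no Cre or floxed allele was named for them. Cells of both groups were sorted as live CD4-positive cells with V beta 5 on day 7 after CAS, an abbreviation the labels do not explain, and a second priming. Age and sex were not named. No congenic marker was named either, and CD4 cells of the host that carry V beta 5 would pass the same gate. Because Cre acts in the host and not in the transferred cells, the receptor gene in these cells gives no check of the labels.

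Each group was 1 pooled sample, of 3 deleted hosts and of 2 control hosts, spread over 4 plates with 92 cells each, or 368 cells per pool and 736 in all. Plates are technical splits of a pool, plate and pool cannot be told apart, and no p-value is given between pools. Cells of the deleted pool had a median of 1499762 reads in genes and plates summed to between 125197307 and 143937319 reads. Cells of the control pool had a median of 1592795 reads and plates of 137968663 to 148025125 reads. All cells were kept, including 1 of deleted plate 4 with 9905 reads. The 7 CD4 T cell markers in the table summed to 7060 CPM (reads per 1000000 reads in genes of the plate, pool or cell) in the deleted pool and 6888 CPM in the control pool, and 6 B cell markers summed to 6.32 and 5.10 CPM. In summed RNA, fewer positive cells and less RNA per cell cannot be told apart, so shares of cells are given beside the levels.

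RGS proteins bind the active, GTP-loaded alpha subunit of a heterotrimeric G protein and speed its GTP hydrolysis, which ends the signal of the receptor that switched it on. In lymphocytes the receptors concerned include those for chemokines, sphingosine 1-phosphate and oxysterols, which steer cells to follicles, T zones and out of lymphoid organs. Rgs1 and Rgs16 act mainly on the Gi and Gq classes and dampen chemokine-driven migration, Rgs2 prefers Gq, and Rgs14 also carries a Ras-binding region and a GoLoco motif that holds inactive Gi. Rgs1, Rgs2 and Rgs16 are known as genes that activated lymphocytes induce, whereas Rgs10 and Rgs19 are known as more constant.

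Rgs1, Rgs2 and Rgs16 all lie on mouse chromosome 1 (GRCm38, GENCODE M21). Rgs2 spans 143999338 to 144004161 and Rgs1 spans 144242296 to 144249242, both on the minus strand. Rgs13, which lies between them, had 0 reads in both pools. Rgs16 spans 153740349 to 153745468 on the plus strand, where the antisense gene Gm28513 shares 236 exon bases with it. The strand setting of the counting is not given in the sources used here, so reads of Rgs16 and Gm28513 cannot be told apart within those shared bases. The longest coding transcript of Rgs16 has 2339 bases. Rgs10 is on chromosome 7, Rgs14 on chromosome 13, Rgs3 on chromosome 4 and Rgs19 on chromosome 2.

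The 250 bases upstream of the RefSeq start (GRCm38.p6) are shown for Rgs2 and Rgs16, which were higher in the deleted pool, and for Rgs10, the member with the highest level, so that the gene with the largest difference between the pools can be read beside a pair of others. RefSeq promoters were matched for 5 of the 7 members, Rgs1 and Rgs14 being the others. Each runs 5′ to 3′ on the gene's own strand, and capitals mark TGACG or its reverse complement CGTCA, the half-site of the cAMP response element.
Rgs2, chr1:144004150-144004399, minus strand: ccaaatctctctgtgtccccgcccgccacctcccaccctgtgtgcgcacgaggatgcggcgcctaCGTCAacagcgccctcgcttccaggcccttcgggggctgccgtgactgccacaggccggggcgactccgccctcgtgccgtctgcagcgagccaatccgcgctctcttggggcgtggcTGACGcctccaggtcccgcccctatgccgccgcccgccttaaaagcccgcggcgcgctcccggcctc
Rgs16, chr1:153740103-153740352, plus strand: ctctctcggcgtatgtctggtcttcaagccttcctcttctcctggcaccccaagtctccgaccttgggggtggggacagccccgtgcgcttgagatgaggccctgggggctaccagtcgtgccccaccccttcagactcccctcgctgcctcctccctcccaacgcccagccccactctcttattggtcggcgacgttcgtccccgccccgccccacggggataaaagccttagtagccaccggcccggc
Rgs10, chr7:128418173-128418422, minus strand: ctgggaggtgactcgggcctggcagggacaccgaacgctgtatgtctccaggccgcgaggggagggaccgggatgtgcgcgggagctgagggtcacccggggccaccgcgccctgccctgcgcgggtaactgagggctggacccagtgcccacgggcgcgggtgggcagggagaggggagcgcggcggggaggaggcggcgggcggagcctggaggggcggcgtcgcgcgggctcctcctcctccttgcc
Rgs2 held 2 such half-sites, starting 185 and 67 bases before the start, and the upstream sequences of Rgs3, Rgs10, Rgs16 and Rgs19 held 0. Of 32851 promoters of the same length, 17.8% held at least 1. The AP-1 letters TGANTCA were in none of the 5 members' sequences, against 6.75% of all promoters. The CCAAT box letters occurred in Rgs2 and Rgs16 and in 33.8% of all promoters, and the GC box letters GGGCGG occurred in 32.7% of all promoters and in the sequences shown for all 3 genes. These motifs were searched on both strands and a match is a run of letters, not a measured site.

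Per kilobase of the longest coding transcript, the level of Rgs10 was the highest of the members in both pools, at 294 CPM per kb in the deleted pool and 328 CPM per kb in the control pool. Rgs19 came next with 102 and 115 CPM per kb, and its plates did not overlap those of Rgs10 in either pool. In the deleted pool the order went on with Rgs2 at 78.8, Rgs14 at 58.6 and Rgs1 at 55.7 CPM per kb, and each of these overlapped its neighbour plate by plate. In the control pool it went on with Rgs14 at 70.5, Rgs1 at 26.7 and Rgs2 at 23.8 CPM per kb. Rgs1 and Rgs2 overlapped each other there, and both lay below Rgs14 on every plate. Rgs16 and Rgs3 were lowest, at 13.01 and 11.4 CPM per kb in the deleted pool and at 6.19 and 15.8 CPM per kb in the control pool.

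Rgs2 differed most between the pools. It had 234.6, 196.5, 231.9 and 285.8 CPM on the 4 deleted plates, against 41.0, 67.5, 93.9 and 84.5 CPM on the 4 control plates. The lowest deleted plate was above the highest control plate. The pool level was 238 CPM in the deleted pool and 71.8 CPM in the control pool, 3.31-fold without a pseudocount. With a pseudocount of 1 CPM the log2 ratio was 1.71. Leaving out any 1 plate kept this log2 ratio between 1.52 and 1.87.

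Rgs1 had 160.8, 300.2, 195.1 and 196.7 CPM on the deleted plates and 96.9, 130.0, 120.4 and 64.5 CPM on the control plates. These plates did not overlap either, although the gap between the lowest deleted and the highest control plate was small beside the spread of the deleted plates. The pool levels were 214 CPM in the deleted pool and 102 CPM in the control pool, 2.09-fold without a pseudocount. With the pseudocount the log2 ratio was 1.06, just past the 2-fold rule of size. It fell short of 2-fold without deleted plate 2, at 0.85, and without control plate 4, at 0.88.

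Rgs16 had 46.7, 28.8, 36.9 and 11.7 CPM on the deleted plates and 23.4, 22.1, 13.2 and 0.0338 CPM on the control plates. The groups overlapped, since deleted plate 4 lay below 3 control plates. Its pool levels were 30.4 CPM in the deleted pool and 14.5 CPM in the control pool, a log2 ratio of 1.02 that came from 10 positive cells of the deleted pool and 11 of the control pool. A single cell held 25.1% of its reads in the deleted pool and 22.6% in the control pool. Without the highest cell of each pool the log2 ratio was 0.96, and without control plate 4 it was 0.62.

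The other 4 members were lower in the deleted pool by less than 2-fold, and their plates overlapped. Rgs3, which acts on Gi and Gq, had 61.9, 81.7, 33.0 and 40.0 CPM on deleted plates against 76.8, 76.7, 90.9 and 53.2 CPM on control plates, with a pool log2 ratio of -0.46. Rgs10 ranged from 212.9 to 346.2 CPM on deleted plates and from 274.5 to 304.2 CPM on control plates, with a log2 ratio of -0.16. Rgs14 ranged from 120.7 to 160.9 CPM and from 98.6 to 208.3 CPM, with a log2 ratio of -0.27. Rgs19 ranged from 91.4 to 200.6 CPM on deleted plates and from 149.6 to 207.6 CPM on control plates, with a log2 ratio of -0.18. These small ratios depended on single plates. Leaving out 1 plate gave -0.73 to -0.28 for Rgs3, both from deleted plates (2 and 3), and -0.33 without deleted plate 2 to -0.07 without deleted plate 3 for Rgs10. It gave -0.46 without control plate 4 to -0.14 without control plate 3 for Rgs14, and -0.32 without deleted plate 1 to -0.003 without deleted plate 2 for Rgs19.

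**Figure D1:**
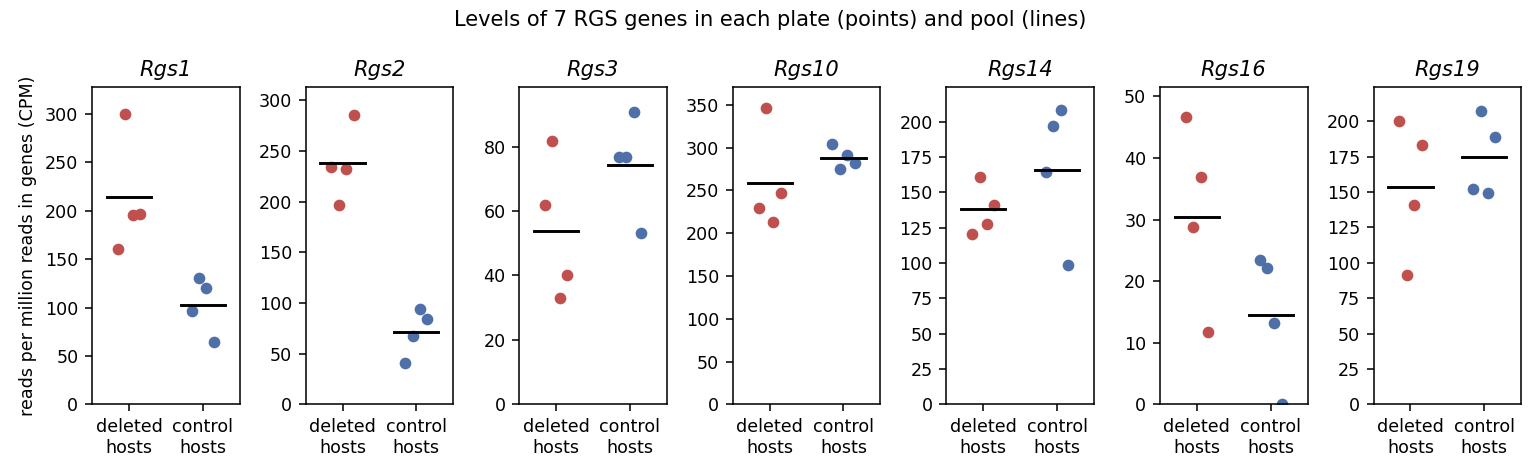
Level of each RGS gene in CPM on each of 4 plates (points) and in the whole pool (line), with deleted hosts left and control hosts right in each panel and a linear axis from 0. The plates of Rgs1 and Rgs2 do not overlap between the pools, and those of the other 5 genes do.

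In all, 3 of the 7 members passed the 2-fold rule upward in the deleted pool and 0 passed it downward. Among the 7207 genes that reached 20 CPM in a pool, 2.75% passed it upward and 3.16% downward. Plates did not overlap for 2 members, both higher in the deleted pool, and for 1.82% of all these genes in that direction and 2.86% in the other. Both conditions held for Rgs1 and Rgs2 and for 0.722% of all genes. The members were chosen with these values known, so the counts describe them and nothing further is read from the comparison. The median log2 ratio of the members was -0.16 and that of all genes was -0.04.

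For each member, most cells had few or no reads and a minority held nearly all of them. A positive cell had a level of 10 CPM or higher that was also no less than 5% of the mean for that gene across its plate. Rgs2 was positive in 118 of 368 cells of the deleted pool (32.1%, exact Clopper-Pearson 95% interval 27.3 to 37.1%) and in 40 of 368 cells of the control pool (10.9%, 7.88 to 14.5%). On single plates this was 32, 25, 30 and 31 cells on the deleted plates and 7, 10, 11 and 12 cells on the control plates. Among positive cells its median was 628 CPM in the deleted pool and 694 CPM in the control pool. For Rgs2 the ratio of the shares was 2.95 and the ratio of the mean levels in positive cells was 1.12. Intervals cover counting error only and not the spread between animals.

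Rgs1 was positive in 91 cells of the deleted pool (24.7%, 20.4 to 29.5%) and in 59 cells of the control pool (16.03%, 12.4 to 20.2%). There were 21, 22, 25 and 23 positive cells on the deleted plates and 16, 16, 15 and 12 on the control plates, again with no overlap. Its median in positive cells was 713 CPM in the deleted pool and 444 CPM in the control pool. The ratio of shares was 1.54 and the ratio of mean levels in positive cells was 1.36, so both parts of the Rgs1 difference pointed the same way. With cells thinned to 200000 reads and 3 reads taken as positive, which left out 3 cells of the deleted pool, the shares were 30.1% in the deleted pool and 16.03% in the control pool.

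For Rgs16 the shares were close, 2.72% in the deleted pool and 2.99% in the control pool, and the mean level in its few positive cells was 2.32 times as high in the deleted pool. Rgs10 was positive in 48.4% of cells in the deleted pool and 49.2% in the control pool, the highest share of any member. Rgs19 was positive in 91 and 92 cells, Rgs14 in 62 and 69 cells and Rgs3 in 53 and 58 cells, in the deleted pool and the control pool. Median levels in positive cells of the 4 genes lay between 273 and 778 CPM in the deleted pool and between 378 and 869 CPM in the control pool.

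**Figure D2:**
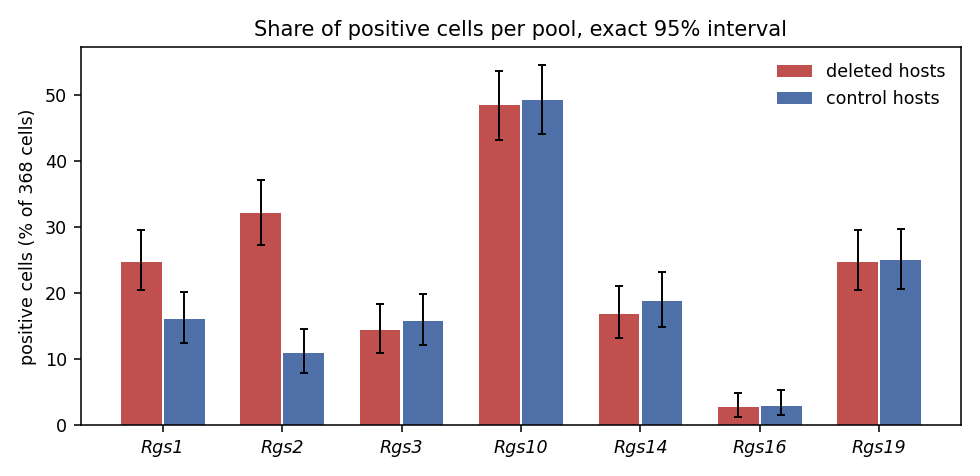
Share of positive cells for each RGS gene in percent of 368 cells per pool, deleted hosts (left bar) and control hosts (right bar), with exact 95% intervals that cover counting error only. The intervals of the pools are apart for Rgs2, just apart for Rgs1 (20.4 against 20.2%) and overlap for the other 5 genes.

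**Figure D3:**
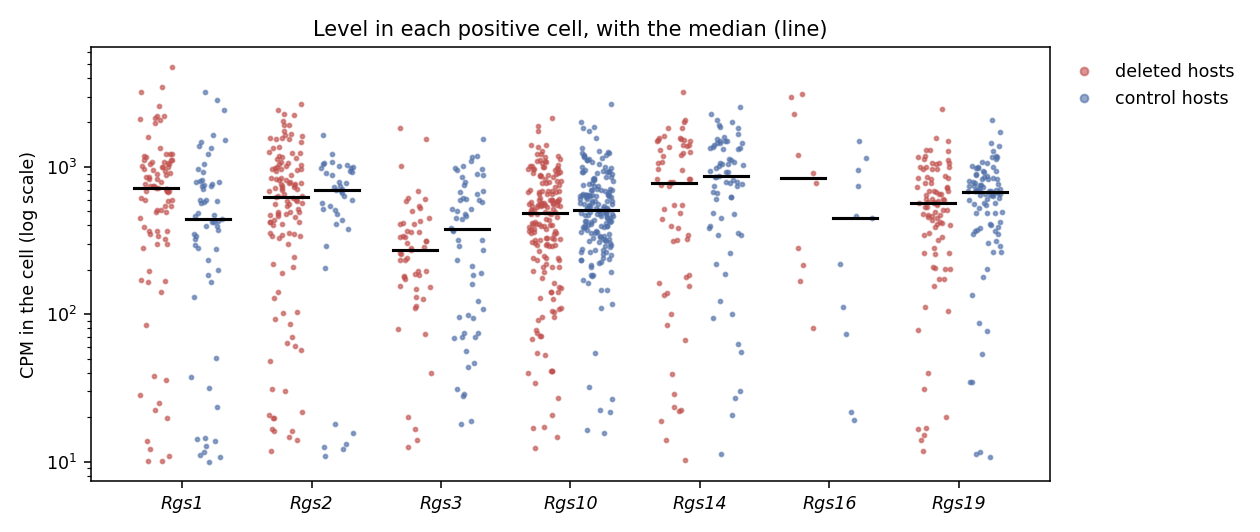
CPM of each RGS gene in every positive cell on a log axis, deleted hosts left and control hosts right of each gene name, with the median as a line. Most positive cells lie between 100 and 1000 CPM or above, with a tail down to the cut at 10 CPM.

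The 9 wells labelled noinput or dw, taken as wells without a cell, show the reads that a well can hold with no cell in it. They held 1 to 10 reads of Rgs1, 0 to 5 of Rgs2 and 0 of Rgs16, in totals of 6698 to 12348 reads per well. At the median depth of a cell, the highest of these for Rgs1 equals 6.53 CPM, below the 10 CPM of a positive cell. Counting any cell with at least 1 read would have made 98.4% of cells of the deleted pool and 96.5% of the control pool positive for Rgs1, and 98.6% and 95.4% positive for Rgs2. Positive cells held 98.6% of all Rgs1 reads in the deleted pool and 97.6% in the control pool.

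Of 28 chemoattractant and lipid receptor genes listed, 27 were in the table and 15 reached 20 CPM in either pool. These were Cxcr5, the TFH homing receptor for follicles, Cxcr3, Ccr7, Ccr4, Ccr9, the sphingosine 1-phosphate receptors S1pr1 and S1pr4, the oxysterol receptor Gpr183, and Gpr18, Gpr174, P2ry10, Gpr132, Ptger2, Ptger4 and Adora2a. None differed by 2-fold between the pools, and their median log2 ratio was 0.24. Of all genes, only 2.75% passed the 2-fold rule upward and 3.16% downward, and their median was -0.04. Gpr183 had 391 CPM in the deleted pool and 256 CPM in the control pool and was the only 1 of the 15 whose plates did not overlap. Over all genes, plates did not overlap in that direction for 1.82%. Over the 736 cells, values were ranked within each plate and compared by Spearman's rho, to which cells of a sample contribute with a shared library batch and unequal depth. Of the 105 pairs of a member and a receptor, 5 reached a rho of 0.1 in size.

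The largest in size was between Rgs3 and S1pr1, the receptor that lets T cells leave lymphoid organs, with a rho of -0.17. Rgs3 was positive in 74 of 599 S1pr1-positive cells (12.4%) and in 37 of 137 other cells (27.0%). The share was lower in S1pr1-positive cells on all 8 plates. Within the deleted pool it was 11.3% against 26.0%, and within the control pool it was 13.3% against 28.3%. Rgs3-positive cells were also deeper, with a median of 1687160 reads against 1504020 in other cells, and ranking within plate and depth group gave a rho of -0.14. Over all 7206 other genes with 20 CPM, 0.0971% had a rho of -0.1 or below with Rgs3. Rgs16 also ran opposite to S1pr1, with a rho of -0.15, positive in 1.34% of S1pr1-positive cells and 9.49% of the others. For Rgs16, 0.139% of all genes had a rho of -0.1 or below and 3.75% had 0.1 or more.

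Rgs1 was more often positive in cells with Cxcr3, the receptor for interferon-induced chemokines, with a rho of 0.17. Rgs1 was positive in 17 of 34 Cxcr3-positive cells (exact interval 32.4 to 67.6%) and in 133 of 702 other cells (18.9%). The share was higher in Cxcr3-positive cells on each of the 7 plates that had any. In the deleted pool it was 63.2% of 19 cells against 22.6% of the rest, and in the control pool it was 33.3% of 15 cells against 15.3%. Of all genes, 2.44% had a rho of 0.1 or more with Rgs1 and 0.18% had -0.1 or below. With Cxcr5 the rho of Rgs1 was 0.09, short of 0.1. Rgs1 was positive in 30.1% of 103 Cxcr5-positive cells and 18.8% of the others, with the higher share on 5 of 8 plates. This was 38.6% against 22.2% in the deleted pool and 19.6% against 15.5% in the control pool. Other pairs short of 0.1 had a higher rho: Rgs16 with Cxcr5 (0.099), Rgs14 with Cxcr3, Rgs19 with Ptger2 and Rgs3 with Adora2a (each 0.097).

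Rgs3 also reached a rho of 0.12 with Cxcr3 and 0.11 with Cxcr5, which became 0.11 and 0.08 when cells were ranked within plate and depth group. Of all genes, 3.04% had a rho of 0.1 or more with Rgs3. Rgs2 reached 0.1 with none of the 15 receptors, and its highest rho was 0.09, with the prostaglandin receptor Ptger4. Of all genes, 0.624% had a rho of 0.1 or more with Rgs2 and 0.139% a rho of -0.1 or below. Rgs10, Rgs14 and Rgs19 likewise had no rho of 0.1 in size with any of the 15. The shares of all genes at 0.1 or more were 0.555% for Rgs10, 1.07% for Rgs14 and 1.19% for Rgs19, and those at -0.1 or below were 0.264%, 0.0278% and 0.0694%. Most receptors were seen in a minority of cells, and in counts this sparse a weak rho is a description only.

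**Figure D4:**
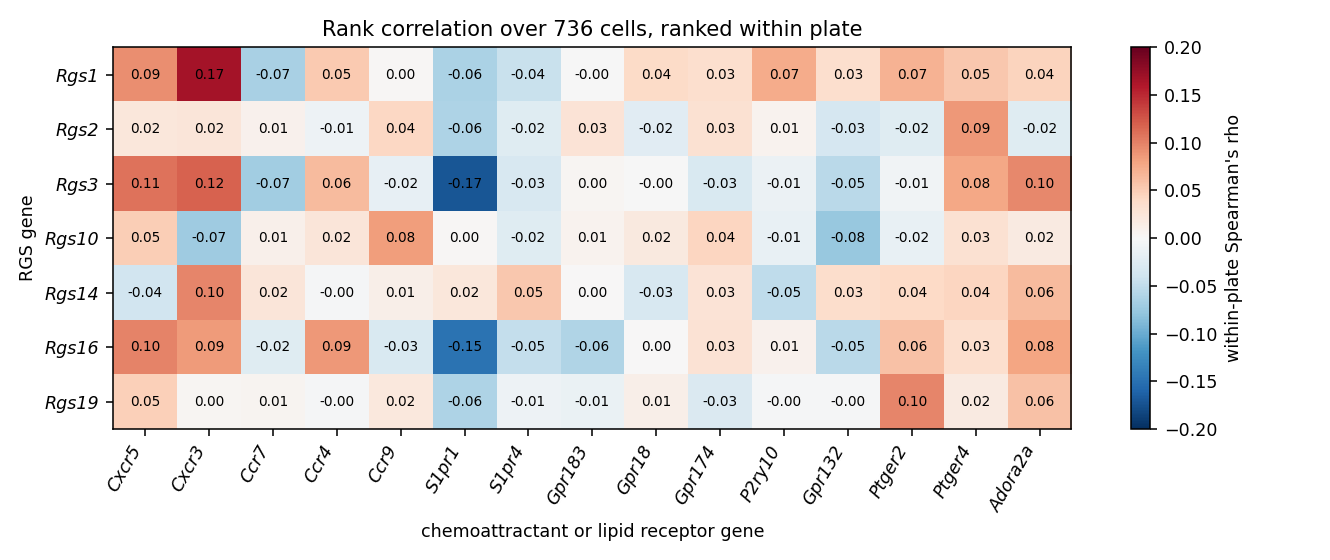
Rank correlation (Spearman's rho, ranked within plate, 736 cells) of each RGS gene (rows) with each of 15 receptor genes (columns), red for positive and blue for negative. The values reach 0.17 for Rgs1 with Cxcr3 and -0.17 for Rgs3 with S1pr1, and most lie within 0.1 of 0.

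Among genes that mark T cell states, Rgs1 was positive in 31.5% of the 216 Icos-positive cells and 15.8% of the others, with a rho of 0.16. Icos is a costimulatory receptor that TFH cells carry. With Tox2, a TFH transcription factor, the rho of Rgs1 was 0.13, with 41.5% positive of 41 cells and 19.1% of the others. The rest of the TFH list with 20 CPM or more was weaker, at 0.09 for Cxcr5, 0.04 for Pdcd1 and 0.02 for Sh2d1a. With Bcl6 the rho of Rgs1 was -0.01, with 18.8% positive of Bcl6-positive cells and 20.9% of the others. Rgs16 had a rho of 0.18 with Pdcd1, the gene of PD-1, and was positive in 8 of 63 Pdcd1-positive cells. Its rho was 0.12 with Tox2, 0.099 with Cxcr5, 0.07 with Bcl6, 0.04 with Icos and 0.01 with Sh2d1a. Of the regulatory T cell markers, Tnfrsf18 had a rho of 0.13 with Rgs1 and 0.17 with Rgs16. Ctla4 had 0.11 with Rgs1 and -0.01 with Rgs16, and Ikzf2 had 0.06 with Rgs1 and 0.17 with Rgs16. Foxp3 had 0.06 with Rgs1 and 0.04 with Rgs16. For Rgs2 no gene of the TFH, regulatory or naive marker lists reached a rho of 0.08 in size.

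The genes most like each member over the 736 cells were taken as the 5 with the highest within-plate rho among genes with 20 CPM or more. For Rgs1 they were Zc3h18, the interleukin-2 receptor subunit gene Il2rb, the cytotoxic granule gene Nkg7, Cxcr3 and Icos, with rho of 0.16 to 0.18. For Rgs2 they were Prrc2a, Rtn3, Psme4, Gmip and Ccdc125, with rho of 0.13 to 0.17. For Rgs16 they were Pdcd1lg2, the ornithine decarboxylase gene Odc1, the survival gene Bcl2l1, the T-box factor gene Eomes and Pdcd1, with rho of 0.18 to 0.22, each resting on 6 to 8 cells positive for both. Rgs3 was most like Ascc2, Psma4, Unc119, Tsr3 and Atp5j, at 0.16 to 0.19, and Rgs19 was most like Mfn1, Acot9, Elac2, Unc119 and Atp5j2, at 0.14 to 0.17. Rgs10 was most like Samd10, Pdcl3, Ets2, Pdcd4 and Svbp, at 0.13 to 0.15, and Rgs14 was most like Ccnc, Crip1, Cdc25b, Snf8 and Nisch, at 0.13 to 0.16. Cells positive for Rgs1 also had more genes positive, with a median of 1440.5 against 1319 in other cells, at a median of 1503810 against 1534680 reads.

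Cells with 2 or more positive members were common. In the deleted pool 57 cells had none of the 7 positive, 126 had 1, 107 had 2 and 78 had more, and in the control pool these were 72, 140, 108 and 48 cells. The 7 cells with 5 members were all in the deleted pool. Rgs1 and Rgs2 were both positive in 43 cells, which was 28.7% of Rgs1-positive and 27.2% of Rgs2-positive cells, with a rho of 0.06. If the shares of both on each plate were combined at random, 35.5 such cells would be seen. Of the 21 Rgs16-positive cells, 10 were also positive for Rgs1 and 9 for Rgs2, where 4.37 and 4.25 cells would follow from the plate shares. Rgs16-positive cells also had more genes positive, with a median of 1626 against 1336 in other cells. The plate shares take no account of this. Rgs10 was positive in 75 of the 150 Rgs1-positive cells, against 72.7 from the plate shares.

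The G proteins and other parts of the pathway were described by the same rules. Of 75 genes listed, 31 reached 20 CPM, 0 differed by 2-fold in either direction and their median log2 ratio was 0.00. Among all genes that reached 20 CPM, only 2.75% passed the 2-fold rule upward and 3.16% downward, so 0 of 31 is not particular to this list. Gnai2, the main Gi alpha subunit gene of lymphocytes, had 936 CPM in the deleted pool and 888 CPM in the control pool. Gna13, Gnas, the receptor kinase gene Adrbk1 and the arrestin gene Arrb2 had 134, 321, 279 and 20.9 CPM in the deleted pool, against 120, 323, 289 and 22.5 CPM in the control pool. The largest log2 ratios in size were -0.97 for Gnb2, 0.78 for Gna15, 0.55 for Gpsm1, 0.54 for Pik3r5, -0.36 for Adcy7, -0.36 for Pde3b, -0.34 for Gng5 and -0.32 for Gng2. Plates did not overlap for Gng5, with 123 CPM in the deleted pool and 155 CPM in the control pool, and overlapped for the other 30. Over all genes, plates did not overlap in that direction for 2.86%. Of the 16 other RGS-domain genes listed, Axin1 alone reached 20 CPM.

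Many genes that T cell signals induce were higher in the same pool as Rgs1 and Rgs2. Of 22 such genes that reached 20 CPM, 5 passed the 2-fold rule upward in the deleted pool (Junb, Klf6, Tnfaip3, Dusp5 and Creb3l2) and 2 downward (Egr1 and Egr3). Among all genes that reached 20 CPM, 2.75% passed it upward and 3.16% downward. A log2 ratio above 0 was seen for 17 of the 22, and their median was 0.48, against -0.04 for all genes. All 28 genes of the list, including those below 20 CPM, summed to 11789 CPM in the deleted pool (plates 11499 to 12058). In the control pool they summed to 7519 CPM (plates 6157 to 9185). Within plates, the highest rho of Rgs1 with these genes was 0.13, with the MAP kinase phosphatase gene Dusp1, followed by Nfkbia at 0.10, Cd69 at 0.05, Tnfaip3 at 0.04, Jun at 0.02 and Jund at 0.00. For Rgs2 they were Creb3l2 at 0.09, Dusp1 at 0.08, Klf6 at 0.07, Nfkbia at 0.07, Nr4a1 at 0.06 and Jund at 0.06. The median rho over the 22 genes was -0.02 for Rgs1 and 0.03 for Rgs2. Of the 21 Rgs16-positive cells, which had more genes positive than other cells, 19 were positive for Dusp1. Dusp1 was positive in 369 of all 736 cells. It had the highest rho of the 22 genes with Rgs16 (0.16), as it did with Rgs1 and with Rgs3 (0.12). Rgs16 ran slightly opposite to Klf6, with a rho of -0.09, and to Jun, with -0.07, and its median rho over the 22 genes was 0.02.

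Only Eomes and Prf1, of the 6 markers of natural killer and innate lymphoid cells, reached 20 CPM. Both passed the 2-fold rule upward in the deleted pool, as did 2.75% of all genes. Of these 2, plates did not overlap for Eomes alone. The other markers of this list stayed below 20 CPM in both pools. The 6 markers summed to 114 CPM in the deleted pool (plates 73.5 to 186) and 47.3 CPM in the control pool (plates 42.2 to 51.6), mostly from Eomes at 67.0 and 19.7 CPM and Prf1 at 24.6 and 9.96 CPM. The CD8 markers summed to 9.47 CPM in the deleted pool and 26.5 CPM in the control pool, and the myeloid markers to 99.3 and 109 CPM. Leaving out the 59 cells of the deleted pool and 51 of the control pool that were positive for a B cell, CD8 or natural killer marker gave log2 ratios of 1.77 for Rgs2, 0.90 for Rgs1 and 1.01 for Rgs16. A wider exclusion, of cells positive for any B cell, CD8, natural killer, myeloid or erythroid marker, left 22 cells of the deleted pool and 58 of the control pool. There the log2 ratio was 2.11 for Rgs2, -0.07 for Rgs1 and -0.50 for Rgs16. Rgs2 was thus more than 2-fold higher in the deleted pool under both, and Rgs1 was not under either. The part of other cell types, and of the signal-induced state, in the Rgs1 and Rgs2 values was not tested further.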

How the data were processed

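For each of 8 plates the authors deposited raw counts of reads, 1 whole number for every gene in every well. Per the labels' protocols, SmartSeq2 was used, with oligo(dT) priming, 25 cycles of PCR and Tn5 tagmentation. Counting used featureCounts 2.0.1 on mm10, per the submitters' processing notes. Aligner, annotation and strand setting: not given in the sources used here. No molecular identifiers are named, so PCR copies count as separate reads.

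The 4 control wells of each plate entered no comparison. The cells' counts were added up by plate and by pool and scaled to CPM. With 1 pooled sample per group no test was run: genes were described by log2 ratios of CPM with a pseudocount of 1 CPM, a 2-fold rule of size, and whether plates overlapped. Genes that reached 20 CPM in a pool were the background. No doublet caller was run on the sorted wells. Transcript lengths came from GENCODE M21 (GRCm38) and promoters from RefSeq (GRCm38.p6). Calculations used Python 3.11.15, numpy 2.4.6, pandas 2.3.3 and scipy 1.17.1, and edgeR 4.0.16 for the alternative TMM scaling only. The rules for the log2 ratio and for plate overlap were tried on simulated plate sums. The positive-cell calls, rho values and motif search were not tried in this way.

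The 7 members, the gene lists and the thresholds were chosen with earlier results of these data known. Named genes were all members, receptors with 20 CPM or more, the 8 largest log2 ratios and 5 set genes of the pathway list, the 5 genes most like each member (predicted genes left out) and up to 6 signal-induced genes with the highest rho to Rgs1 and Rgs2. The associations with T cell state markers, Rgs16 and Rgs3 with Dusp1, and the 2-fold signal-induced genes named were picked after their values were seen. Alternatives were leaving out each plate, the highest cells, shallow cells or cells with markers of other types, averaging over cells, other scalings and pseudocounts, and other cuts for a positive cell. The exclusions by marker were added after seeing the data: the wider was run first, and the narrower was chosen after its result.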

Additional observations from a re-analysis of the deposited data

Results flagged for a closer look

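The wells labelled mBM10 (13 wells) and mBM100 (10 wells), abbreviations the labels do not explain, entered no comparison, and their median reads of several members were above the most seen in any of the 9 wells labelled noinput or dw. Rgs2 had a median of 491 reads in mBM10 wells and 86.5 in mBM100 wells, against at most 5 in wells without a cell. Rgs19 had medians of 463 and 91 reads, against at most 4. Rgs1 had medians of 52 reads in mBM10 wells and 55 in mBM100 wells, against at most 10. Rgs14 had medians of 3 and 36.5 reads, against at most 2. Rgs3 had a median of 8.5 reads and Rgs10 of 26 reads in mBM100 wells, against at most 2 and 3. These are raw reads in wells of unequal depth, with a median total of 1946949 reads in mBM10 wells, 760430.5 in mBM100 wells and 9554 in wells without a cell. Scaled to their own reads the wells without a cell were mostly not lower: Rgs2 had 246 CPM in mBM10 wells, 132 in mBM100 wells and 268 in wells without a cell, and Rgs1 had 62.3, 68.1 and 559 CPM. Of the members listed above, only Rgs19 was higher per read, at 204 CPM in mBM10 wells against 198 in wells without a cell.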

How the results depend on the processing

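The values were described for 4 plates per pool that share animals, and replicate animals were pooled, so the spread between animals is not measured. The lone pool of each group limits every ratio. No paired analysis was possible because each group had 1 pooled sample and the comparison came from no test. Of 221 values under alternatives, 211 stayed within the margin set for them (the plate spread for log2 ratios and rho, wide for Rgs16, the counting interval for shares, 1.5 times for counts). Many of these values left out 1 of 4 plates, which moves a pool value only part of the way across such a margin. The count is therefore no test of stability. Rgs1 without deleted plate 2, at 0.85, lay within the margin although it fell short of 2-fold. Sign was a separate matter: it turned in 3 of 112 log2 ratios, 0 of 15 rho values and 15 of 77 share differences, the last all in Rgs3, Rgs10, Rgs14, Rgs16 and Rgs19, whose differences were small. The log2 ratios turned in the wider exclusion by marker (22 and 58 cells kept), to -0.075 for Rgs1, -0.50 for Rgs16 and 0.48 for Rgs19, while Rgs3 was -1.76 and 1 member was at least 2-fold higher. That exclusion was run first, after seeing the data. The narrower one was chosen after its result, dropping the myeloid and erythroid lists because Lyz2 (285 and 223 cells), Cst3 (214 and 173) and Hba-a1 (123 and 108) were positive in many cells. Lyz2 and Hba-a1 levels were low, at 15.3 and 12.03 and at 8.35 and 6.79 CPM, but Cst3 was not, at 70.5 and 80.6 CPM. In the narrower one 2 members were at least 2-fold higher and Rgs1 was 0.90. The cause of the turns was not tested. Leaving out each plate in turn gave 1 to 3 members at least 2-fold higher, with log2 ratios of 0.85 to 1.18 for Rgs1, 1.52 to 1.87 for Rgs2 and 0.62 to 1.33 for Rgs16. Counting a cell as positive at 1 read gave differences in share of 1.90, 3.26 and 3.26 percentage points for Rgs1, Rgs2 and Rgs16, against 8.70, 21.2 and -0.27, and thinning gave 14.1, 23.9 and -0.25. Without a filter on low counts, 1176 genes rather than 198 were at least 2-fold higher.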
